A study of Homo sapiens with 28 samples.

Results

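The RNA of LNCaP cells treated with the glycosylation inhibitor tunicamycin after depletion of the transcription factor ATF4 was compared with that of solvent-treated cells. The aim was to see which changes of gene expression were present when ATF4 mRNA was low. ATF4 protein was not examined here. LNCaP is an established line derived from a metastatic human prostate adenocarcinoma, and all libraries come from this 1 line. The comparison holds 12 of the 28 libraries of the series, and the series' design text describes 4 independent experiments. Of these, 4 carry the ATF4 siRNA named siATF4-2 with tunicamycin (TM siATF4-2), 4 the ATF4 siRNA named siATF4-3 with tunicamycin (TM siATF4-3), and 4 the control siRNA with DMSO (DMSO siCtrl). The mean of both ATF4 siRNA groups, called TM siATF4 below, was set against DMSO siCtrl for all genes. The 4 libraries with the control siRNA and tunicamycin (TM siCtrl) give the level of the response when ATF4 was not depleted. Cells received 2.5 µg/mL tunicamycin for 18 h, starting 2 days after siRNA transfection. No group with an ATF4 siRNA and DMSO was analysed here, so an effect of tunicamycin and an effect of ATF4 depletion on resting cells cannot be told apart in TM siATF4 against DMSO siCtrl. The sample titles number the ATF4 siRNAs 2 and 3, another label of the same samples numbers them 1 and 2, and the title's numbers are used.

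Tunicamycin blocks the first sugar transfer of N-glycan assembly, so that newly made secretory proteins misfold in the endoplasmic reticulum (ER). The unfolded protein response (UPR) answers through the sensors PERK, IRE1 and ATF6. PERK phosphorylates the translation factor eIF2α, which lowers protein synthesis in general and favours translation of ATF4, a transcription factor of amino acid supply, redox and stress genes. IRE1 splices the XBP1 mRNA and ATF6 is cleaved in the Golgi, and the transcription factors made in these ways act on genes of chaperones, protein disposal and vesicle transport.

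Totals of the 16 libraries of these 4 groups lay between 10794637 and 17253801 counts, and the 10 most abundant genes held 5.05% to 6.22% of a library, but 7.16% to 7.57% in TM siCtrl. Of 25369 genes, 14314 had enough counts to be tested. Levels are TMM-scaled CPM, the share of a library's counts that a gene holds after scaling, given per library or as mean ± SD, n = 4 per group. Changes are log2 values ± SE, and adjusted p-values come from edgeR's quasi-likelihood test with Benjamini-Hochberg adjustment over all genes tested. The threshold for calling a gene higher or lower was 0.05 on this adjusted p. Of the 9 luminal prostate markers examined, 9 were tested, with KRT18 at 844 to 970 CPM with siATF4-2 and 779 to 841 CPM with siATF4-3. The leukocyte markers CD3D, CD3E and MS4A1, the neuroendocrine marker INSM1, the basal marker TP63 and the fibroblast markers COL1A2 and DCN had no count in the TM siATF4 libraries. Other markers of the same types had reads there. The fibroblast markers COL1A1 and COL3A1 reached 23.0 and 0.881 CPM and the neuroendocrine marker SYP 2.54 CPM. The basal marker KRT14 reached 0.498 CPM and the leukocyte marker PTPRC 0.409 CPM. Replicate 4 stood apart more often than the others: of 48 values far from the other 3 of their group among the genes picked by the naming rule, 34 belonged to it. Without the fourth replicates of all groups, a setting added after seeing the data, TM siATF4 against DMSO siCtrl gave 4335 higher and 4558 lower genes. Counts for KRT8, KRT18, CCNA2, COPA, CREB3, DDIT3, DERL3, DTL, EIF2AK3, ENTPD3, FADS2, HSPE1, KDELR3, PRDX1, RNASE4, SHMT1, SLC7A6, SQSTM1, SRPR, STARD4, STON1, THRSP, TMEM97, TXNDC12 and VIM are uncertain to the extent that exons of another gene overlap theirs, since the strand setting of the counting is not given in the sources used here. The same holds for BLOC1S1, DDC, HSP90B1, RPL13A, RPL28 and SEMA6A, and members of families with near-identical copies (NBPF1, TUBA1A, HSPA1L, ribosomal proteins and keratins) may share reads, as may NRM, which is annotated at several loci.

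ATF4, the targeted gene (hg19 chromosome 22, 39916564 to 39918691, plus strand), was low in every library of the siRNA groups. It had 221, 194, 177 and 358 CPM with siATF4-2, 115, 98.5, 102 and 140.4 CPM with siATF4-3, 1479, 1487, 1562 and 1517 CPM in TM siCtrl and 539.5, 545, 614 and 723 CPM in DMSO siCtrl. The siATF4 values lay below all DMSO siCtrl and all TM siCtrl values, replicate 4 was the highest of both siATF4 groups, and siATF4-2 left more of the mRNA than siATF4-3. The change was −1.88 ± 0.12, adjusted p = 7.26e-12 against DMSO siCtrl and −3.20 ± 0.12 against TM siCtrl. The difference between the siRNAs was 1.06 ± 0.16, adjusted p = 6.1e-05.

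Many genes differed between TM siATF4, with its lowered ATF4 mRNA, and DMSO siCtrl. These counts include any effect of ATF4 depletion itself. In TM siATF4 against DMSO siCtrl, 4393 genes were called higher (30.7% of those tested) and 4582 lower (32.0%). At least 2-fold changes were called for 451 higher genes (3.15%) and 694 lower genes (4.85%). Each siRNA on its own against DMSO siCtrl called 59.7% of the genes tested with siATF4-2 and 57.4% with siATF4-3, in either direction. Here siATF4-2 gave 561 higher (3.92%) and 735 lower genes (5.13%) of this size, and siATF4-3 gave 376 (2.63%) and 711 (4.97%). For TM siCtrl against DMSO siCtrl the counts were 1215 (8.49%) and 1041 (7.27%), and that comparison shares the DMSO siCtrl libraries. The 8 siATF4 values and the 4 DMSO siCtrl values did not overlap for 5704 genes (39.8%).

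A direct comparison of TM siATF4 with TM siCtrl sorted the genes that had changed at least 2-fold. It called 4586 genes higher (32.0%) and 4524 lower (31.6%), of which 298 (2.08%) and 740 (5.17%) differed at least 2-fold. Of the 451 raised genes, 185 (41.0%) stood within 1.5-fold of their TM siCtrl level by the 95% interval of the difference. A further 152 (33.7%) were called nearer to DMSO siCtrl than TM siCtrl was, 77 (17.1%) were called above TM siCtrl, and 37 (8.2%) met none of these. Of the 694 lowered genes, 169 (24.4%) stood within 1.5-fold of TM siCtrl, 193 (27.8%) were nearer to DMSO siCtrl, 175 (25.2%) were called below TM siCtrl, and 157 (22.6%) met none of these. Of the genes within 1.5-fold, 108 raised and 65 lowered ones were still called different from TM siCtrl, by small amounts. The sorting uses the same siATF4 libraries as the first comparison and is a description. The 175 genes below TM siCtrl include ATF4 itself and genes that TM siCtrl held above DMSO siCtrl, described with the ATF4 axis below.

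**Figure D1:**
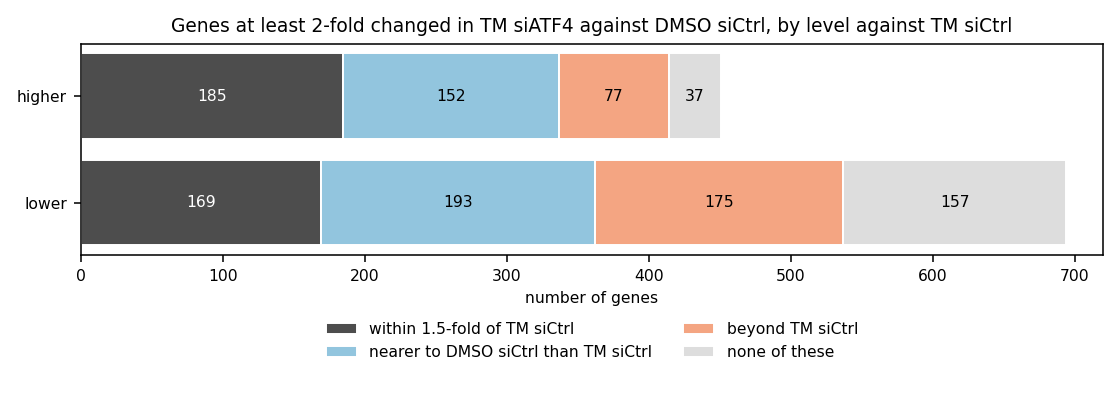
Number of genes called and at least 2-fold higher (upper bar) or lower (lower bar) in TM siATF4 against DMSO siCtrl, split by their level against TM siCtrl. The dark segments, 185 raised and 169 lowered genes, stood within 1.5-fold of TM siCtrl.

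The ER folding machinery rose in most of its members, and most members were called below their TM siCtrl level, by differing amounts. Of 36 ER chaperones and folding enzymes tested, 31 were called higher and 3 lower in TM siATF4 against DMSO siCtrl, with a median change of 1.49 beside −0.01 over all genes tested, of which 30.7% were called higher and 32.0% lower. With siATF4-2 alone 1 was called lower. In TM siCtrl against DMSO siCtrl the counts were 34 and 2 and the median 1.87, beside 34.3% called higher, 34.7% called lower and a median of 0.01 over all genes. Directly against TM siCtrl, 4 of the 36 were higher and 24 lower, with a median of −0.23 beside 0.00, 32.0% and 31.6% over all genes. Of the 26 members raised at least 2-fold, 18 stood within 1.5-fold of TM siCtrl. The shares over all genes given here also stand beside the counts of each list below.

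Short promoter stretches of 3 of these raised genes, of HERPUD1, a raised gene of protein disposal, and of 2 ATF4-axis genes are shown because they carry known elements of the UPR. Each is the 210 bases before the RefSeq gene start on GRCh38.p14, read 5′ to 3′ on the gene's strand. Capitals mark exact matches, on either strand, to the ER stress element (ERSE, CCAAT and CCACG with 9 bases between, known to bind ATF6 and XBP1 with NF-Y), to ER stress element II (ERSE-II, ATTGG and CCACG with 1 base between, known to bind the same factors) or to the C/EBP-ATF response element (CARE, TGATGNAA, known to bind ATF4 with C/EBP proteins). Spacer bases stay in lower case, and the matches shown do not overlap. The gene positions given elsewhere are on hg19, a different build. HSPA5 (chr9:125241344-125241553, minus strand) holds 1 ERSE, HSP90B1 (chr12:103930200-103930409, plus strand) 2, HYOU1 (chr11:119057206-119057415, minus strand) 2 ERSE-II, and HERPUD1 (chr16:56931932-56932141, plus strand) 1 ERSE-II and 1 CARE. ASNS (chr7:97872409-97872618, minus strand) and CHAC1 (chr15:40953261-40953470, plus strand) hold 1 CARE each.
HSPA5: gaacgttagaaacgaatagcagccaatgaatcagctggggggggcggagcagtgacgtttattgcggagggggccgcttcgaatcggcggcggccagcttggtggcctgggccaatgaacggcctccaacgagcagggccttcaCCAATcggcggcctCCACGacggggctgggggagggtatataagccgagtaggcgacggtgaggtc
HSP90B1: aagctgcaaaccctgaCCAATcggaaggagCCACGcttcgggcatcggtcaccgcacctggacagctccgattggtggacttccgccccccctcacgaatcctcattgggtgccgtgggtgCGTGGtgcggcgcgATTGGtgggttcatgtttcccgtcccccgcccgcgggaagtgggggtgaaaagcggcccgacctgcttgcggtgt
HYOU1: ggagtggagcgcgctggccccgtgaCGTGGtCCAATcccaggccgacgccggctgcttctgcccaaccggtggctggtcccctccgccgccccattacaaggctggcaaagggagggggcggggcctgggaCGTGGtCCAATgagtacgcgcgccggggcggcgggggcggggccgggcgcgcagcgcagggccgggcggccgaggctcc
HERPUD1: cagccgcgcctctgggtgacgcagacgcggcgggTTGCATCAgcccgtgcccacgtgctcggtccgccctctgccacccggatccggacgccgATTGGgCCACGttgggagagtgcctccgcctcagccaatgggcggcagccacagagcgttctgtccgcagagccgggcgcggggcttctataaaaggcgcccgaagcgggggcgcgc
ASNS: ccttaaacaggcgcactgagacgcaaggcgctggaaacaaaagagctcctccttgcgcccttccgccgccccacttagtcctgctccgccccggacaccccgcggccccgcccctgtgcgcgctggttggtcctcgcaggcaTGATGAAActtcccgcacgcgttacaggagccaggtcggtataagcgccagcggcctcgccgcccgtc
CHAC1: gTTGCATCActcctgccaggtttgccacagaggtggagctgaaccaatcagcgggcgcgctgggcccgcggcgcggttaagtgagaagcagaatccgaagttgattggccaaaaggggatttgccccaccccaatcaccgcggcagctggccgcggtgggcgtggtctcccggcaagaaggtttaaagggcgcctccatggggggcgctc

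Over windows of 250 bases before to 50 after the start, an ERSE was found in 22 of the 27305 RefSeq promoters (0.0806%), an ERSE-II in 15 (0.0549%) and a CARE in 1003 (3.67%). Promoters were matched for 11183 of the 14314 tested genes. Among these, 14 held an ERSE, and 8 of the 14 were called and at least 2-fold higher in TM siATF4 against DMSO siCtrl (CALR, CANX, CRELD2, ERO1LB, FICD, HSP90B1, HSPA5 and SERP1). An ERSE-II was held by 11, and 3 of the 11 were raised in this way (HERPUD1, HYOU1 and SDF2L1). Over all genes tested, with or without a matched promoter, 3.15% were raised in this way. In the chaperone list 6 of 33 matched promoters held an ERSE (18.2%, beside 0.125% of the tested genes). In that list 2 held an ERSE-II (6.06%, beside 0.0984%). Of the 137 matched genes called below TM siCtrl among the lowered ones, 14 held a CARE (10.2%, beside 1.82% of the tested genes). They were AGT, ASNS, BCAT1, CALCRL, CHAC1, FGF21, GPX8, LINC01133, LPO, NAT2, PLIN4, PRSS1, S100P and TMEM154. Among the lowered genes that met no sorting criterion the share was 3.77%, and among the raised genes nearer to DMSO siCtrl it was 5.0% (6 of 120). In the other sorted groups it was 0.0% to 2.08%. These matches are descriptions of the letters in the window.

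HSPA5, the gene of the ER chaperone BiP (hg19 chromosome 9, 127997127 to 128003666, minus strand), had 6258, 6406, 5339 and 6687 CPM with siATF4-2, 5048, 4655, 4657 and 4869 CPM with siATF4-3, 12276, 12857, 12417 and 10762 CPM in TM siCtrl and 969, 882, 956 and 739.5 CPM in DMSO siCtrl. The 8 siATF4 values lay far above DMSO siCtrl and below every TM siCtrl value. The change was 2.62 ± 0.09, adjusted p = 3.22e-18, with 3.77 ± 0.10 in TM siCtrl against DMSO siCtrl and −1.15 ± 0.07 between TM siATF4 and TM siCtrl. HYOU1, an ER chaperone of the Hsp110 type, had 2689, 2511, 2462 and 2463 CPM with siATF4-2, 2260.0, 2238, 2170.3 and 2121 CPM with siATF4-3, 2564, 2654, 2747 and 2597 CPM in TM siCtrl and 349, 372, 375 and 337 CPM in DMSO siCtrl. Here the siATF4-2 values overlapped those of TM siCtrl and the siATF4-3 values lay just below them. HYOU1 rose by 2.72 ± 0.05 and differed from TM siCtrl by −0.16 ± 0.04 (95% interval −0.24 to −0.09, and not called with siATF4-2 alone).

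PDIA4, a protein disulfide isomerase, had 2558, 2359.7, 2197 and 2313 CPM with siATF4-2, 2306, 2214, 2152 and 2135 CPM with siATF4-3, 1362, 1509.8, 1592 and 1920.4 CPM in TM siCtrl and 284, 288, 329 and 312 CPM in DMSO siCtrl. All siATF4 values were above all TM siCtrl values, and the change of 2.91 ± 0.07 was larger than the 2.40 ± 0.08 of TM siCtrl by 0.51 ± 0.06, adjusted p = 7.43e-08. SDF2L1, a component of an ER chaperone complex, was also called higher than TM siCtrl (2.44 ± 0.07 against DMSO siCtrl, 0.26 ± 0.06 against TM siCtrl), though not with siATF4-3 alone. The BiP cochaperone DNAJB11 had 575 ± 46.0 CPM with siATF4-2, 526 ± 34.6 CPM with siATF4-3, 565 ± 32.4 CPM in TM siCtrl and 98.5 ± 6.20 CPM in DMSO siCtrl, a rise of 2.48 ± 0.06 with a difference from TM siCtrl of −0.04 ± 0.05 (95% interval −0.14 to 0.06). DNAJC3, which encodes a cochaperone that also inhibits PERK, rose by 2.40 ± 0.05, and MANF, a secreted stress protein, by 2.41 ± 0.05, with differences from TM siCtrl of −0.08 ± 0.05 and −0.21 ± 0.05. HSP90B1, the ER member of the HSP90 family, rose by 2.67 ± 0.06, CRELD2, a stress-induced secreted protein, by 2.63 ± 0.05, and FICD, which modifies BiP, by 2.78 ± 0.09. These 3 genes stood below TM siCtrl, by −0.49 ± 0.05, −0.46 ± 0.04 and −0.72 ± 0.06.

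AGR2, a disulfide isomerase of secretory epithelia, was the most raised of the list and stood well below its TM siCtrl level. It averaged 809.7 ± 141 CPM with siATF4-2, 529 ± 85.4 CPM with siATF4-3, 2335 ± 599.9 CPM in TM siCtrl and 86.7 ± 18.5 CPM in DMSO siCtrl. Its change was 2.92 ± 0.25 with 4.75 ± 0.29 in TM siCtrl, and it lay −1.84 ± 0.20, adjusted p = 5.12e-08 from TM siCtrl. The 3 members called lower include TXNDC12 (−0.38 ± 0.06) and ERP29 (−0.28 ± 0.05), both ER proteins of the thioredoxin type. TM siCtrl raised TXNDC12 by 0.29 ± 0.07 and ERP29 by 0.75 ± 0.06. ERP29 was not called with siATF4-2 alone.

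**Figure D2:**
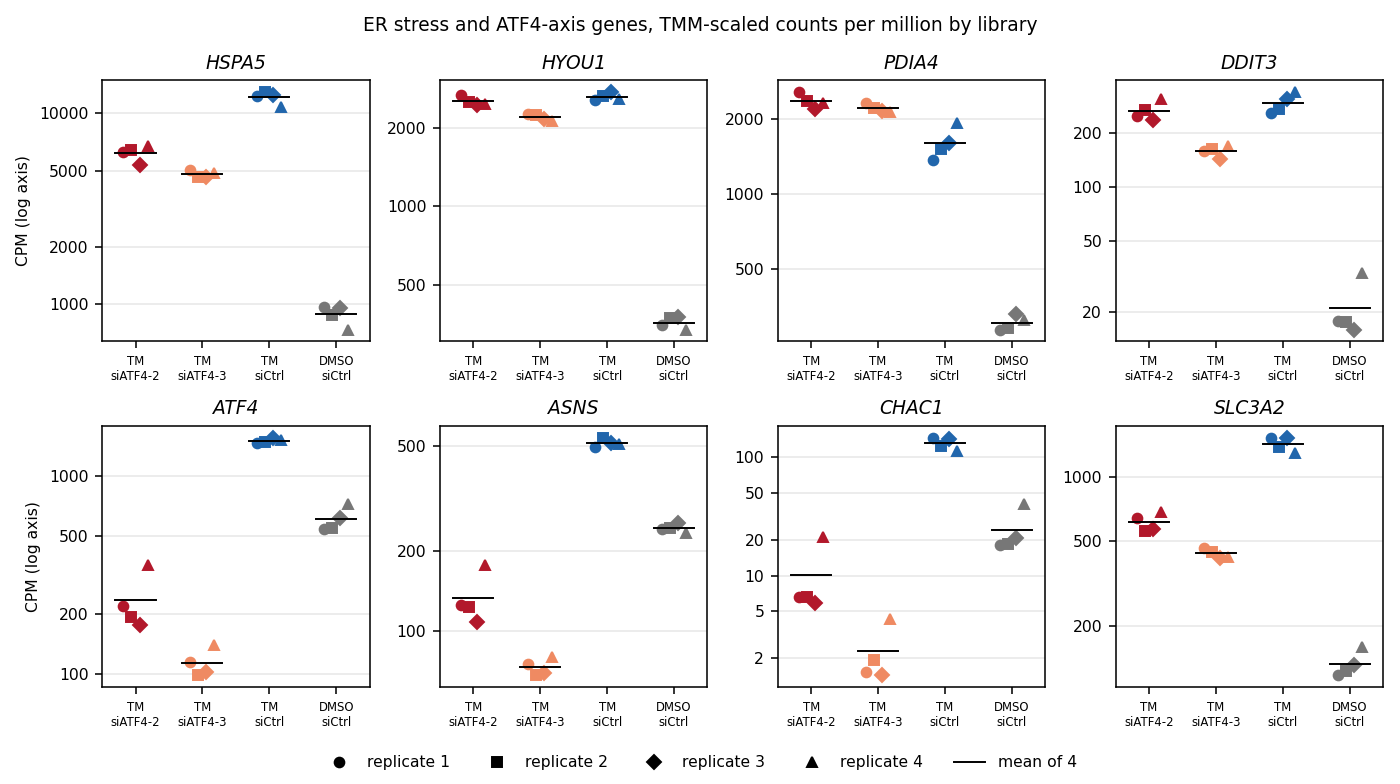
TMM-scaled CPM of 8 genes in each library (log axis), with symbols for the replicate number and a line at the mean of 4. HSPA5, HYOU1, PDIA4, DDIT3 and SLC3A2 lie above DMSO siCtrl in all 8 siATF4 libraries, while ATF4 and ASNS lie below it.

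Genes of ER-associated degradation, which returns misfolded protein to the cytosol for disposal, rose in 26 of 30 cases with 0 lower (median 0.50, and 0.68 in TM siCtrl). HERPUD1, an organiser of the degradation complex, had 907, 872, 766 and 886 CPM with siATF4-2, 554, 515, 488 and 528 CPM with siATF4-3, 1262, 1246, 1282 and 1116 CPM in TM siCtrl and 129.9, 125, 145 and 155 CPM in DMSO siCtrl. Both siRNA groups lay between DMSO siCtrl and TM siCtrl without overlap, and siATF4-3 was the lower. HERPUD1 rose by 2.27 ± 0.06 and stood −0.88 ± 0.05 from TM siCtrl. VIMP, also named SELENOS, rose by 2.22 ± 0.05, DERL3 by 1.83 ± 0.18 and the ubiquitin ligase adaptor SEL1L by 1.66 ± 0.08, with differences from TM siCtrl of −0.41 ± 0.04, −0.51 ± 0.14 and −0.86 ± 0.07. Against TM siCtrl, 7 of the 30 were higher and 21 lower (median −0.38).

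Genes of entry into and exit from the ER also rose. Of 24 genes of the translocon, signal recognition and signal peptidase, 21 rose and 0 fell (median 1.00, and 1.19 in TM siCtrl), led by TRAM1 (1.81 ± 0.05), the signal peptidase subunit SEC11C (1.81 ± 0.04), SSR3 (1.63 ± 0.05) and the signal recognition receptor SRPR (1.38 ± 0.06). Without DMSO siCtrl replicate 4, TM siATF4-2 replicate 2 or TM siATF4-2 replicate 3, with the replicate block, limma-voom, a minimum count of 30, upper-quartile factors or siATF4-3 alone, 1 of the 24 was called lower. Of 39 genes of ER-Golgi vesicle transport, 37 rose and 0 fell (median 0.94, and 1.17 in TM siCtrl). These were led by the coat protein gene SEC24D (2.03 ± 0.06), the retrieval receptor KDELR3 (1.60 ± 0.09), the cargo receptor LMAN1 (1.42 ± 0.05) and the COPI subunit COPA (1.40 ± 0.04). SEC24D had 327, 330.0, 299 and 319 CPM with siATF4-2, 256, 260.3, 275 and 245 CPM with siATF4-3, 368, 376, 384 and 368 CPM in TM siCtrl and 73.1, 72.7, 80.5 and 56.3 CPM in DMSO siCtrl. The siATF4 values were above all of DMSO siCtrl and below all of TM siCtrl. COPA, in contrast, stood 0.16 ± 0.04 above TM siCtrl. Directly against TM siCtrl, 18 of the 24 translocon genes were lower and 2 higher (median −0.26). Of the 39 transport genes 25 were lower and 2 higher (median −0.27). Over all genes tested these shares were 31.6% and 32.0%.

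N-glycan assembly is the process that tunicamycin blocks, and 30 of its 39 genes rose while 4 fell (median 0.62, and 0.79 in TM siCtrl). Directly against TM siCtrl, 23 of the 39 were lower and 8 higher (median −0.18), beside 31.6% and 32.0% of all genes. GFPT1, the entry enzyme of hexosamine synthesis, rose by 1.75 ± 0.08 and stood −0.88 ± 0.07 from TM siCtrl. The oligosaccharyltransferase genes MAGT1 (1.61 ± 0.05), STT3A (1.32 ± 0.04) and RPN1 (1.28 ± 0.03) rose and stood within 1.5-fold of TM siCtrl. Among the members that fell were the glucosyltransferase gene ALG10 (−0.94 ± 0.11) and SRD5A3, of dolichol synthesis (−0.55 ± 0.05), which were also lower in TM siCtrl (−0.67 ± 0.13 and −0.25 ± 0.06).

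**Figure D3:**
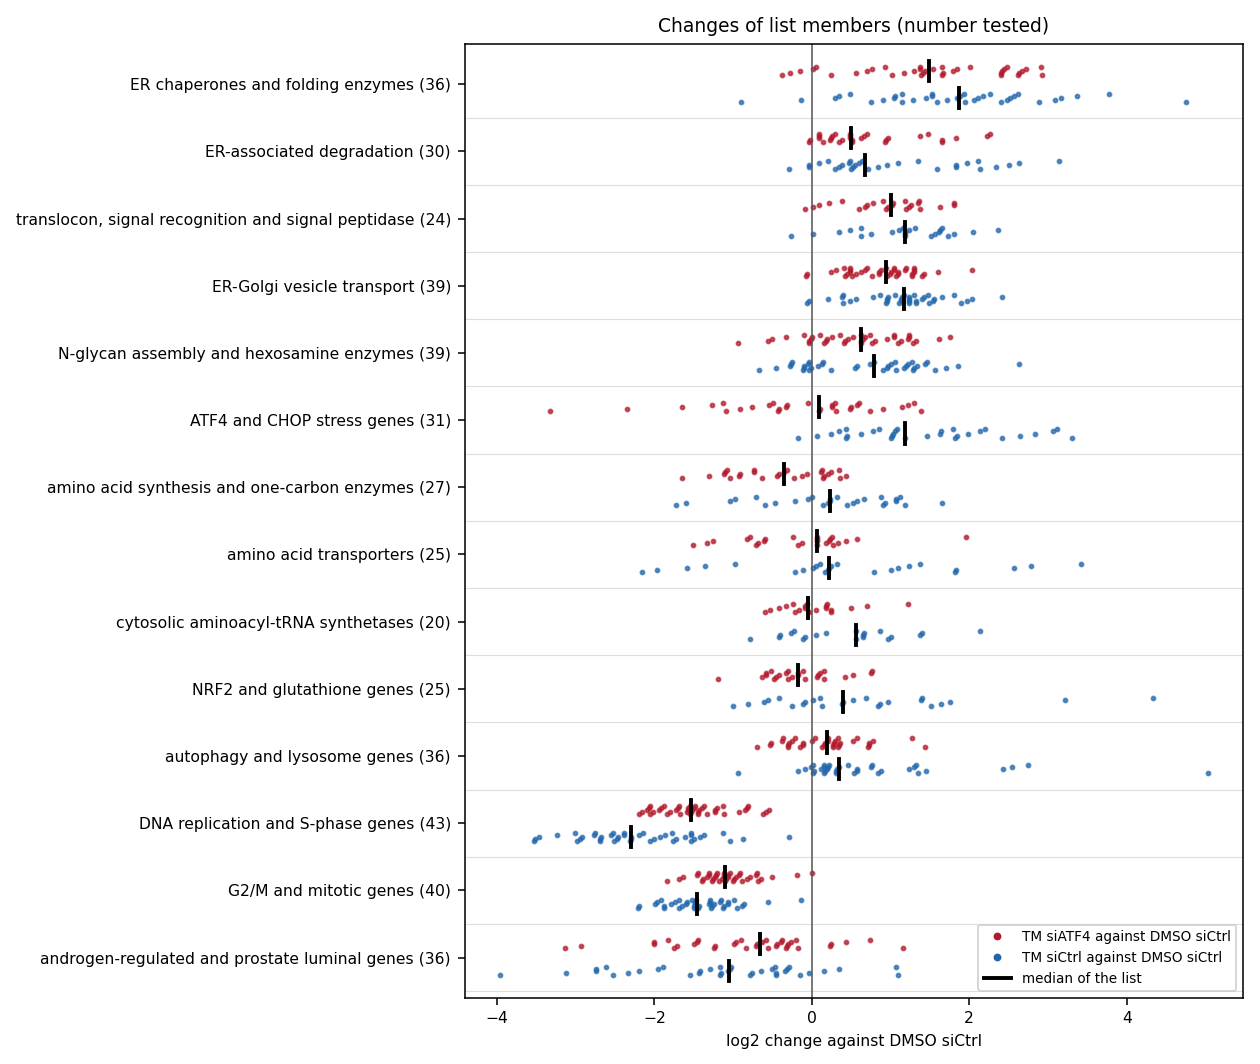
Log2 changes of the tested members of 14 gene lists (each point 1 gene, black bars the medians) in TM siATF4 against DMSO siCtrl (red, upper row) and TM siCtrl against DMSO siCtrl (blue, lower row), which share the DMSO siCtrl libraries. The chaperone list has medians of 1.49 and 1.87, the ATF4 and CHOP list 0.09 and 1.18, and the replication list −1.54 and −2.29.

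The UPR sensors and their transcription factors changed in both directions. Of 19 tested, 9 rose and 6 fell, beside 30.7% and 32.0% of all genes tested, so falls were about as frequent as over all genes. The median was −0.02, and 0.56 in TM siCtrl. It was 0.14 in a fit of the compared groups alone, 0.07 with siATF4-2 alone and 0.23 with siATF4-3 alone. Of the 19, 10 were lower and 4 higher directly against TM siCtrl (median −0.21), beside 31.6% and 32.0% of all genes. EIF2AK3, the gene of PERK, had 98.1, 108, 92.6 and 103 CPM with siATF4-2, 79.3, 80.2, 80.5 and 83.6 CPM with siATF4-3, 79.9, 95.2, 90.7 and 91.0 CPM in TM siCtrl and 29.97, 29.2, 30.7 and 30.9 CPM in DMSO siCtrl. All tunicamycin groups lay far above DMSO siCtrl, and the values with and without ATF4 siRNA overlapped. EIF2AK3 rose by 1.58 ± 0.06 and differed from TM siCtrl by 0.01 ± 0.06 (95% interval −0.09 to 0.12). With siATF4-2 alone it was called 0.17 above TM siCtrl, and the siRNAs differed by 0.31 ± 0.07.

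The other sensor genes rose less than in TM siCtrl. ERN1, the gene of IRE1, averaged 41.9 ± 4.80 CPM with siATF4-2, 25.4 ± 3.32 CPM with siATF4-3, 68.8 ± 1.03 CPM in TM siCtrl and 20.4 ± 1.49 CPM in DMSO siCtrl, a rise of 0.68 ± 0.08 with −1.08 ± 0.07 against TM siCtrl. ATF6 averaged 104 ± 7.11 CPM with siATF4-2, 73.8 ± 1.17 CPM with siATF4-3, 168 ± 8.69 CPM in TM siCtrl and 59.6 ± 2.10 CPM in DMSO siCtrl, a rise of 0.56 ± 0.05 with −0.94 ± 0.05 against TM siCtrl. Both genes were higher with siATF4-2 than with siATF4-3, by 0.72 ± 0.09 for ERN1 and 0.50 ± 0.06 for ATF6. XBP1 mRNA, whose splicing is not visible in gene counts, had 178, 197, 173 and 192 CPM with siATF4-2, 164, 162, 163 and 164 CPM with siATF4-3, 282, 292, 268 and 255 CPM in TM siCtrl and 179, 178, 191 and 197 CPM in DMSO siCtrl. The siATF4-2 values overlapped those of DMSO siCtrl, the siATF4-3 values lay below all of them, and the TM siCtrl values lay above all others. XBP1 was called −0.10 ± 0.04, adjusted p = 0.0269 against DMSO siCtrl, but not without DMSO siCtrl replicate 3 (−0.09, adjusted p = 0.0845) or replicate 4 (−0.07, adjusted p = 0.152), TM siATF4-2 replicate 1 (−0.09, adjusted p = 0.0568) or replicate 3 (−0.08, adjusted p = 0.0679), nor in a fit of the compared groups alone (−0.09, adjusted p = 0.0626) or with siATF4-2 alone. TM siATF4 lay −0.66 ± 0.04 from TM siCtrl.

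DDIT3, the gene of the transcription factor CHOP and a classical ATF4 target, was among the most raised genes (hg19 chromosome 12, 57910371 to 57914300, minus strand). It had 248, 268, 238 and 309 CPM with siATF4-2, 159, 163, 144 and 169 CPM with siATF4-3, 259, 273, 309 and 339 CPM in TM siCtrl and 17.8, 17.5, 15.9 and 33.2 CPM in DMSO siCtrl. Every siATF4 value was far above the highest DMSO siCtrl value, which was that of replicate 4. The siATF4-2 values overlapped TM siCtrl and the siATF4-3 values lay below it. DDIT3 rose by 3.27 ± 0.16, adjusted p = 2.7e-14, with 3.79 ± 0.17 in TM siCtrl. The difference from TM siCtrl was −0.52 ± 0.12 for the mean of both siRNAs and was not called with siATF4-2 alone (−0.15). CREB3, an ER-anchored transcription factor gene, rose by 1.13 ± 0.05, while EIF2AK4, the gene of the amino acid sensor kinase GCN2, fell by 0.37 ± 0.04 on the log2 scale and lay 0.61 ± 0.04 above TM siCtrl.

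The ATF4 and CHOP stress genes, a list without DDIT3, were lower than in TM siCtrl nearly throughout. Of 31 tested, 14 were called higher and 13 lower against DMSO siCtrl (median 0.09), beside 30.7% and 32.0% of all genes tested. TM siCtrl had 28 higher and 1 lower (median 1.18). Directly against TM siCtrl, 30 of the 31 were lower and 0 higher (median −1.50), beside 31.6% and 32.0% of all genes tested. The siRNAs differed here, with 6 higher and a median of −0.36 with siATF4-3 alone and a median of 0.31 with siATF4-2 alone. ATF3, a stress transcription factor, averaged 142 ± 21.0 CPM with siATF4-2, 64.5 ± 2.81 CPM with siATF4-3, 306 ± 20.04 CPM in TM siCtrl and 36.5 ± 6.503 CPM in DMSO siCtrl, a rise of 1.39 ± 0.14 with −1.67 ± 0.12 against TM siCtrl. CHAC1, an enzyme that degrades glutathione, had 6.63, 6.59, 5.83 and 21.0 CPM with siATF4-2, 1.53, 1.92, 1.43 and 4.29 CPM with siATF4-3, 145, 124, 142 and 113 CPM in TM siCtrl and 18.1, 18.5, 20.6 and 40.3 CPM in DMSO siCtrl. Replicate 4 was the highest in both siATF4 groups and in DMSO siCtrl, outside the other 3 values each time, and that of siATF4-2 reached into the DMSO siCtrl values. CHAC1 was −2.35 ± 0.30, adjusted p = 4.71e-07 against DMSO siCtrl, 2.41 ± 0.24 in TM siCtrl, and −4.77 ± 0.25 between TM siATF4 and TM siCtrl. FGF21, a stress-secreted hormone, had 5 counts in all over the 8 siATF4 libraries, none of them with siATF4-3, and 21 over the 4 DMSO siCtrl libraries, too few for a fold. DDIT4, an inhibitor of mTORC1 signalling, averaged 153 ± 74.4 CPM with siATF4-2, 119 ± 35.1 CPM with siATF4-3, 727 ± 16.8 CPM in TM siCtrl and 424 ± 89.9 CPM in DMSO siCtrl (−1.65 ± 0.18 against DMSO siCtrl).

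Genes of amino acid synthesis were more often lower than higher against DMSO siCtrl. Of 27 enzymes of amino acid synthesis and one-carbon metabolism, 6 rose and 15 fell, beside 30.7% and 32.0% of all genes tested. Their median was −0.35, and 0.23 in TM siCtrl. ASNS, asparagine synthetase (hg19 chromosome 7, 97481429 to 97501854, minus strand), had 125, 123, 108 and 178 CPM with siATF4-2, 75.0, 67.7, 69.1 and 79.7 CPM with siATF4-3, 495, 538, 516 and 508 CPM in TM siCtrl and 243, 245, 256 and 234 CPM in DMSO siCtrl. The siATF4 values lay below all DMSO siCtrl values, and TM siCtrl lay above them. ASNS was −1.31 ± 0.07, adjusted p = 3.04e-14 against DMSO siCtrl, with 1.07 ± 0.09 in TM siCtrl, and siATF4-3 lowered it more than siATF4-2 by 0.87 ± 0.09. PHGDH, the entry enzyme of serine synthesis, averaged 252 ± 54.7 CPM with siATF4-2, 132 ± 19.7 CPM with siATF4-3, 778 ± 18.8 CPM in TM siCtrl and 571 ± 20.6 CPM in DMSO siCtrl (−1.65 ± 0.08 against DMSO siCtrl). PCK2, mitochondrial phosphoenolpyruvate carboxykinase, averaged 124 ± 50.3 CPM with siATF4-2, 61.4 ± 15.9 CPM with siATF4-3, 714 ± 33.9 CPM in TM siCtrl and 263 ± 4.41 CPM in DMSO siCtrl (−1.59 ± 0.14). The branched-chain aminotransferase gene BCAT1 was lower (−1.10 ± 0.38, with 28 counts over the 8 siATF4 and 41 over the 4 DMSO siCtrl libraries) but not called with siATF4-2 alone. SHMT1, a folate enzyme, also fell (−1.11 ± 0.06) but lay above TM siCtrl (0.62 ± 0.07). GOT2, the mitochondrial aspartate aminotransferase, rose (0.43 ± 0.05) and did not pass the test in TM siCtrl (−0.05 ± 0.05). ALDH1L2 was called higher only narrowly (0.36 ± 0.16, adjusted p = 0.0478), and its adjusted p ranged over 0.0196 to 0.322 across the alternatives, with 0.191 without DMSO siCtrl replicate 4.

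Against DMSO siCtrl, amino acid transporters and tRNA synthetases were called about as often in each direction as all genes tested (30.7% higher and 32.0% lower). Both lists were mostly lower than in TM siCtrl. Of 25 transporters 8 rose and 9 fell (median 0.07, −0.06 without TM siATF4-2 replicate 4 and −0.03 without TM siATF4-3 replicate 4). TM siCtrl had 15 higher and 5 lower (median 0.22). Directly against TM siCtrl, 15 of the 25 were lower and 4 higher (median −0.53), beside 31.6% and 32.0% of all genes tested. SLC3A2, the heavy chain shared by several exchangers, had 646, 557, 569 and 683 CPM with siATF4-2, 467, 447, 418 and 424 CPM with siATF4-3, 1521, 1373, 1515 and 1294 CPM in TM siCtrl and 118, 124, 132 and 160.1 CPM in DMSO siCtrl. The siATF4 values lay between DMSO siCtrl and TM siCtrl without overlap. SLC3A2 rose by 2.20 ± 0.10 with siATF4-2 and 1.72 ± 0.09 with siATF4-3, and by 3.42 ± 0.10 in TM siCtrl. SLC7A6, a partner of that chain, rose by 0.58 ± 0.05 and lay above TM siCtrl (0.42 ± 0.05). The transporter genes SLC16A10 (−1.51 ± 0.09), SLC38A3 (−1.33 ± 0.38) and SLC43A1 (−1.26 ± 0.06) fell. For SLC43A1 the level in TM siCtrl was near that of DMSO siCtrl (0.06 ± 0.07).

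Of 20 cytosolic aminoacyl-tRNA synthetases, which charge tRNAs with their amino acids, 8 rose and 7 fell (median −0.05, and 0.56 in TM siCtrl). With siATF4-2 alone 3 fell and with siATF4-3 alone 11. TM siCtrl had 12 higher and 5 lower. Directly against TM siCtrl, 13 of the 20 were lower and 5 higher (median −0.49), beside 31.6% and 32.0% of all genes tested. WARS rose by 1.22 ± 0.05 and QARS fell by 0.59 ± 0.04 on the log2 scale. AARS differed between the siRNAs. It had 1164, 1205, 1137 and 1154 CPM with siATF4-2, 738, 763, 699 and 797 CPM with siATF4-3, 1154, 1135, 1159 and 1054 CPM in TM siCtrl and 552, 561, 554 and 627 CPM in DMSO siCtrl. With siATF4-2 its values overlapped TM siCtrl, and with siATF4-3 they lay nearer to DMSO siCtrl, for a change of 0.70 ± 0.05 and a difference between siRNAs of 0.64 ± 0.05, adjusted p = 1.14e-11. GARS averaged 389.8 ± 75.0 CPM with siATF4-2, 184 ± 22.1 CPM with siATF4-3, 1006 ± 30.8 CPM in TM siCtrl and 388 ± 27.3 CPM in DMSO siCtrl. The mean of both siRNAs was −0.53 ± 0.09 against DMSO siCtrl, but the siRNAs were 0.01 ± 0.10 and −1.07 ± 0.10 on their own. Among the matched promoters of this list, 6 of 13 held a CARE (46.2%, beside 1.82% of the tested genes), those of AARS, CARS, IARS, MARS, NARS and TARS.

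Cell cycle genes fell nearly as a whole. Of 43 genes of DNA replication and S phase, 0 rose and 43 fell (median −1.54, and −2.29 in TM siCtrl), and 41 of the 43 lay above TM siCtrl. In bulk RNA, fewer cycling cells and less of these mRNAs per cell cannot be told apart. MCM2, a subunit of the replicative helicase, had 38.0, 42.9, 52.4 and 49.0 CPM with siATF4-2, 34.3, 38.5, 36.1 and 55.5 CPM with siATF4-3, 14.5, 13.7, 14.4 and 21.4 CPM in TM siCtrl and 154, 175, 185 and 213 CPM in DMSO siCtrl. The siATF4 values lay below all DMSO siCtrl and above all TM siCtrl values. MCM2 was −2.07 ± 0.14 against DMSO siCtrl and −3.51 ± 0.19 in TM siCtrl, a difference of 1.44 ± 0.18. The helicase genes MCM5 (−2.19 ± 0.14) and MCM4 (−2.09 ± 0.11) and the initiation factor gene GINS2 (−2.15 ± 0.11) fell in the same way, and MCM5, MCM4 and GINS2 also stood above TM siCtrl (1.04 ± 0.19, 0.90 ± 0.13 and 0.53 ± 0.15).

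Of 40 genes of G2 phase and mitosis, 0 rose and 38 fell (median −1.10, and −1.46 in TM siCtrl), and 31 lay above TM siCtrl. The cyclin gene CCNA2 averaged 21.9 ± 3.30 CPM with siATF4-2, 21.9 ± 0.941 CPM with siATF4-3, 17.0 ± 1.85 CPM in TM siCtrl and 78.2 ± 7.69 CPM in DMSO siCtrl, a change of −1.84 ± 0.07 that stood 0.36 ± 0.08 above TM siCtrl. CDK1, the mitotic kinase, changed by −1.46 ± 0.05 and stood 0.75 ± 0.05 above TM siCtrl. The kinetochore gene SPC25 (−1.69 ± 0.08) and the spindle gene NUSAP1 (−1.63 ± 0.06) fell and stood within 1.5-fold of TM siCtrl. LIG1, a DNA ligase gene of the replication list, fell (−2.05 ± 0.07) and was called above TM siCtrl by 0.33 ± 0.09, within 1.5-fold. Among lowered genes outside both cell cycle lists, the chromatin protein HMGB2 (−1.92 ± 0.05) and the nuclear envelope protein NRM (−1.80 ± 0.12) stood within 1.5-fold of TM siCtrl. Called above TM siCtrl were the histone chaperone ASF1B (−2.29 ± 0.09 against DMSO siCtrl), the licensing regulator DTL (−2.27 ± 0.12), FAM111B (−2.18 ± 0.17) and CDCA7 (−1.35 ± 0.10). RMI2, of the dissolution complex (−2.26 ± 0.11), was also called above TM siCtrl (0.43 ± 0.15), but not without TM siCtrl replicate 1 (0.31, adjusted p = 0.0829) or with siATF4-3 alone (0.20, adjusted p = 0.339). The cohesin acetyltransferase gene ESCO2 (−2.18 ± 0.12) was lower with siATF4-3 than with siATF4-2 (a difference of 1.22 ± 0.19). TERT, the catalytic subunit of telomerase, averaged 0.763 ± 0.262 CPM with siATF4-2, 1.65 ± 0.383 CPM with siATF4-3, 0.122 ± 0.127 CPM in TM siCtrl and 5.33 ± 1.26 CPM in DMSO siCtrl, so that it fell by 2.23 ± 0.22 on the log2 scale and lay above TM siCtrl.

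Androgen-regulated and prostate luminal genes were mostly lower, with 31 of 36 called lower and 5 higher (median −0.66, and −1.05 in TM siCtrl). Against TM siCtrl, 21 were higher and 4 lower. Against DMSO siCtrl, 31 were lower with siATF4-2 alone (median −0.79) and 26 with siATF4-3 alone (median −0.51). KLK2, an androgen-regulated kallikrein, had 93.4, 80.9, 109.7 and 104 CPM with siATF4-2, 146, 151, 167 and 184 CPM with siATF4-3, 66.8, 67.6, 85.0 and 82.3 CPM in TM siCtrl and 533, 532, 522 and 421 CPM in DMSO siCtrl. DMSO siCtrl replicate 4 was the lowest of its group and still above all tunicamycin libraries, and siATF4-3 lay above siATF4-2. KLK2 changed by −2.37 ± 0.14 with siATF4-2, −1.63 ± 0.13 with siATF4-3 and −2.74 ± 0.14 in TM siCtrl, with −0.74 ± 0.14 between siATF4-2 and siATF4-3. OR51E1, an olfactory-type receptor gene of the prostate, averaged 1.66 ± 0.808 CPM with siATF4-2, 1.49 ± 1.04 CPM with siATF4-3, 0.900 ± 0.290 CPM in TM siCtrl and 14.1 ± 1.11 CPM in DMSO siCtrl. It fell by 3.14 ± 0.19 and STEAP4, a metalloreductase, by 2.93 ± 0.21 on the log2 scale. The luminal keratin genes KRT18 (1.16 ± 0.04) and KRT8 (0.74 ± 0.04) rose.

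**Figure D4:**
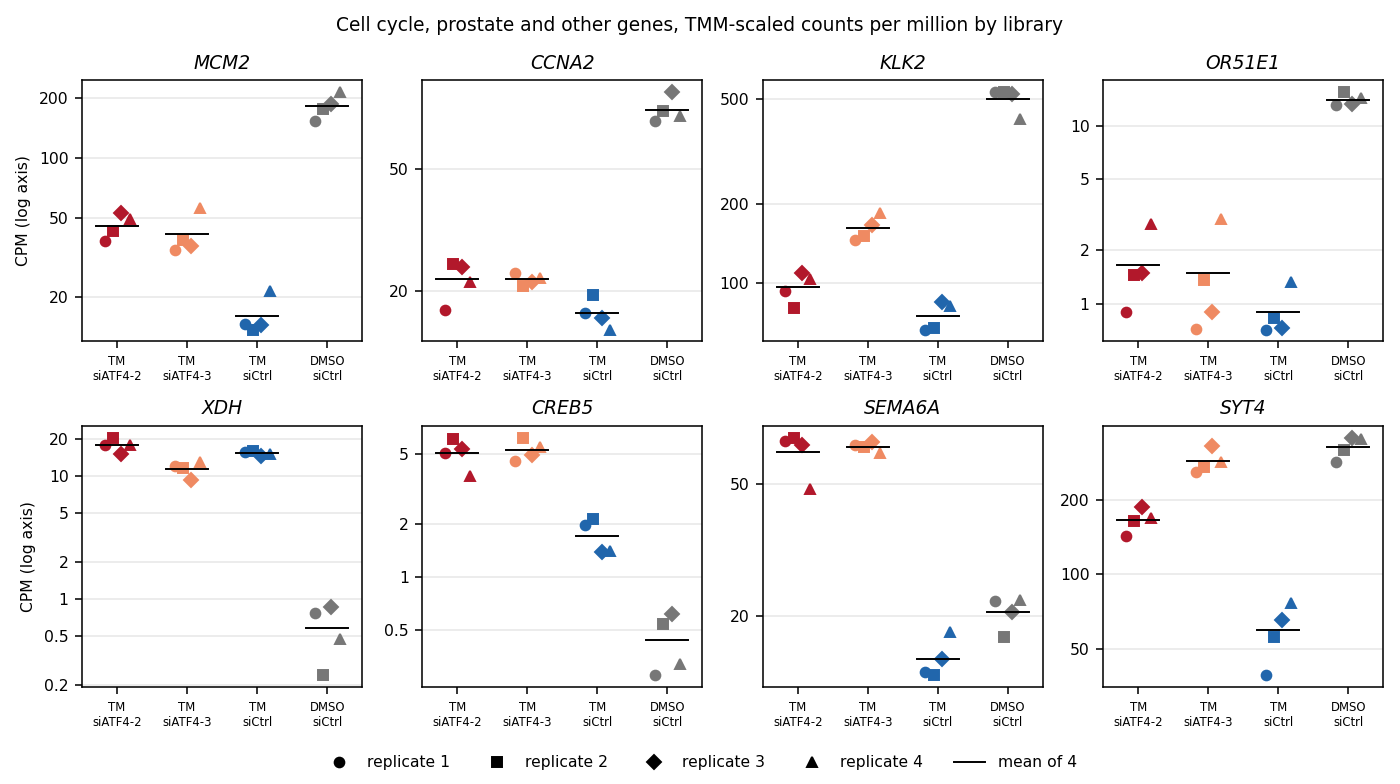
TMM-scaled CPM of 8 genes in each library (log axis), with symbols for the replicate number and a line at the mean of 4. MCM2, CCNA2, KLK2 and OR51E1 lie below DMSO siCtrl in all 8 siATF4 libraries, XDH, CREB5 and SEMA6A lie above it, and SYT4 differs between the siRNAs.

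Lipid genes changed in both directions, and over all genes tested 30.7% were called higher and 32.0% lower. Of 25 genes of cholesterol synthesis and targets of SREBP2, the sterol-responsive transcription factor, 3 rose and 13 fell (median −0.18, and −0.30 without the fourth replicates). INSIG1, which retains SREBPs in the ER, fell by 1.10 ± 0.13 on the log2 scale and differed from TM siCtrl by 0.00 ± 0.14 (95% interval −0.26 to 0.27). TMEM97 fell by 0.92 ± 0.05, while the sterol carrier STARD4 (0.84 ± 0.08) and the desaturase SC5D (0.78 ± 0.05) rose. Of 25 genes of fatty acid and triglyceride synthesis, 5 rose and 17 fell (median −0.42, with 3 called higher without DMSO siCtrl replicate 4). The triglyceride enzyme DGAT2 averaged 6.41 ± 0.977 CPM with siATF4-2, 8.19 ± 0.631 CPM with siATF4-3, 3.98 ± 0.378 CPM in TM siCtrl and 30.2 ± 1.49 CPM in DMSO siCtrl (−2.05 ± 0.11). The desaturase FADS2 (−0.75 ± 0.08) and the glucose-sensing factor MLXIPL (−1.61 ± 0.17) also fell. THRSP, a regulator of lipogenesis, had 11 counts over the 8 siATF4 libraries and 85 over the 4 DMSO siCtrl libraries. LPIN1 (0.60 ± 0.09), a phosphatidate phosphatase, and ELOVL1 (0.43 ± 0.05), a fatty acid elongase, rose.

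Of 25 genes of NRF2, the oxidative stress factor, and of glutathione, 3 rose and 13 fell (median −0.18), beside 30.7% and 32.0% of all genes. Of the 25, 5 were called higher without DMSO siCtrl replicate 3 or without TM siATF4-2 replicate 3, and 7 with siATF4-2 alone. TM siCtrl had 14 higher and 6 lower (median 0.40). Against TM siCtrl 19 were lower and 5 higher, beside 31.6% and 32.0% of all genes tested. The peroxiredoxin gene PRDX1 (−1.19 ± 0.06), the biliverdin reductase BLVRB (−0.63 ± 0.09) and the glutathione reductase GSR (−0.58 ± 0.04) fell, and OSGIN1 (0.75 ± 0.12) and the thioredoxin reductase TXNRD1 (0.53 ± 0.05) rose. TXNRD1 kept part of its TM siCtrl change of 1.52 ± 0.06.

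Of 36 autophagy and lysosome genes 18 rose and 13 fell (median 0.19), where TM siCtrl had 27 higher and 2 lower. Over all genes tested 30.7% rose and 32.0% fell, so the share that fell against DMSO siCtrl was near that of all genes. Directly against TM siCtrl, however, 29 of the 36 were lower and 5 higher (median −0.35), beside 31.6% and 32.0% of all genes. WIPI1, an early autophagosome protein, averaged 39.95 ± 6.48 CPM with siATF4-2, 31.4 ± 1.29 CPM with siATF4-3, 87.0 ± 2.48 CPM in TM siCtrl and 13.1 ± 1.03 CPM in DMSO siCtrl (1.44 ± 0.07 against DMSO siCtrl and −1.30 ± 0.06 against TM siCtrl). The receptors OPTN (1.27 ± 0.10) and SQSTM1 (0.73 ± 0.05) and the conjugation gene ATG12 (0.73 ± 0.05) rose, and the kinase ULK1 (−0.70 ± 0.06) and the lysosomal regulator TFEB (−0.53 ± 0.11) fell. ULK1 was near the DMSO siCtrl level in TM siCtrl (−0.09 ± 0.07).

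For the other stress lists, the shares over all genes tested were 30.7% higher and 32.0% lower. Of 28 p53 targets 12 rose and 7 fell (median 0.11, and −0.01 with siATF4-3 alone), with AEN (0.92 ± 0.06) and ZMAT3 (0.80 ± 0.07) raised and GADD45B (−1.34 ± 0.14) and the repair gene DDB2 (−0.96 ± 0.06) lowered. Of 25 cytosolic heat shock genes 4 rose and 16 fell (median −0.29). The chaperone HSP90AA1 averaged 1085 ± 59.1 CPM with siATF4-2, 1092 ± 41.2 CPM with siATF4-3, 714 ± 62.9 CPM in TM siCtrl and 1840.1 ± 66.8 CPM in DMSO siCtrl (−0.76 ± 0.07), HSPE1 changed by −0.73 ± 0.04 and HSPA1L by −0.64 ± 0.15, and the small heat shock gene HSPB8 rose by 1.08 ± 0.14. DNAJB4 was called higher (0.41 ± 0.14, adjusted p = 0.0133) but not without DMSO siCtrl replicate 4 (0.33, adjusted p = 0.0657) or with siATF4-3 alone. Of 16 mitochondrial chaperones and proteases 3 rose and 9 fell (median −0.11, with 4 lower for siATF4-3 alone), with HSPA9, the mitochondrial HSP70, at 0.66 ± 0.04, the proteases YME1L1 at 0.37 ± 0.04 and OMA1 at −0.35 ± 0.04.

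Changes of ribosomal protein genes were small, and over all genes tested 30.7% were called higher and 32.0% lower. Of 71 tested, 41 rose and 6 fell (median 0.09, 26 higher with siATF4-2 alone, and 10 lower with upper-quartile factors). RPL26 (0.27 ± 0.03), RPL37 (0.26 ± 0.04) and RPL28 (0.25 ± 0.05) rose, though RPL28 was not called with siATF4-2 alone, and RPL13A (−0.66 ± 0.08) and RPS9 (−0.23 ± 0.05) fell. Of 13 mRNAs described as cut by IRE1, 2 rose and 5 fell (median −0.06). SCARA3 (−2.07 ± 0.27), BLOC1S1 (−1.03 ± 0.08) and PRKCD (−0.72 ± 0.07) fell, and GALNT10 (0.35 ± 0.06) and ERGIC3 (0.20 ± 0.03) rose. For BLOC1S1, the most used reporter of this decay, the level was 6.85 ± 0.388 CPM with siATF4-2, 6.29 ± 0.565 CPM with siATF4-3, 7.22 ± 0.845 CPM in TM siCtrl and 13.4 ± 1.10 CPM in DMSO siCtrl, and the difference from TM siCtrl was −0.14 ± 0.10 (95% interval −0.33 to 0.05).

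Of 24 interferon-stimulated genes 5 rose and 11 fell (median −0.38), beside 30.7% and 32.0% of all genes tested. IFI44 (−1.76 ± 0.20), OAS3 (−1.66 ± 0.11), IFIT1 (−1.42 ± 0.21) and IFIT3 (−1.32 ± 0.27) were lowered. The exonuclease ISG20 (1.00 ± 0.09) and MX1 (0.72 ± 0.11) were raised. Calls among NF-kB targets were near the shares over all genes tested, 30.7% higher and 32.0% lower. Of 12 NF-kB targets 4 rose and 4 fell (median 0.10, and 2 fell without DMSO siCtrl replicate 2). The subunit gene RELB (1.03 ± 0.33) and the apoptosis inhibitor BIRC2 (0.79 ± 0.05) rose, and the subunit gene NFKB2 (−0.94 ± 0.11) fell. TNFAIP2 was lower (−0.67 ± 0.23, adjusted p = 0.0101) but not called without DMSO siCtrl replicate 4 (−0.44, adjusted p = 0.122) or with siATF4-3 alone. Of 6 neuroendocrine markers 1 rose and 3 fell. ENO2 (−1.20 ± 0.13) and DDC (−0.62 ± 0.09) fell, and TUBB3 rose (0.55 ± 0.14). SYT4, a synaptotagmin, had 143, 164, 187 and 168 CPM with siATF4-2, 259, 272, 331 and 286 CPM with siATF4-3, 39.0, 55.8, 65.6 and 76.8 CPM in TM siCtrl and 284, 318, 356 and 351 CPM in DMSO siCtrl. Its siATF4-2 values lay below all DMSO siCtrl values, and its siATF4-3 values overlapped them. It changed by −0.98 ± 0.18 with siATF4-2 and by −0.19 ± 0.18 with siATF4-3, which was not called.

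Markers of other cell types were few. Of 3 basal markers KRT14 fell (−2.08 ± 0.36) at levels of at most 1.49 CPM, and ITGA6 was called higher (0.19 ± 0.06, adjusted p = 0.00779), but not without DMSO siCtrl replicate 3 (0.14, adjusted p = 0.0596) or replicate 4 (0.14, adjusted p = 0.0552). Of 6 fibroblast and mesenchymal markers 2 rose and 1 fell, or 2 without TM siATF4-3 replicate 2. VIM, the intermediate filament vimentin, averaged 29.7 ± 6.19 CPM with siATF4-2, 32.1 ± 3.45 CPM with siATF4-3, 15.2 ± 1.99 CPM in TM siCtrl and 10.00 ± 1.31 CPM in DMSO siCtrl (1.62 ± 0.13 against DMSO siCtrl and 1.02 ± 0.13 against TM siCtrl). ACTA2 rose (1.61 ± 0.42) and FN1 fell (−0.72 ± 0.06). The leukocyte markers CD4, CD68 and LYZ had changes between −0.32 and 0.61 and were not called, though 1 of them was called higher without DMSO siCtrl replicate 3, without TM siATF4-2 replicate 4 or with siATF4-2 alone.

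The most raised gene under the rule was XDH, xanthine dehydrogenase, the last enzyme of purine breakdown. It had 18.0, 20.4, 15.2 and 17.9 CPM with siATF4-2, 12.1, 11.7, 9.33 and 12.95 CPM with siATF4-3, 15.8, 16.0, 14.7 and 15.1 CPM in TM siCtrl and 0.768, 0.239, 0.857 and 0.476 CPM in DMSO siCtrl. The values with siATF4-2 were mostly above those of TM siCtrl, those with siATF4-3 below, and DMSO siCtrl was far lower. XDH rose by 4.60 ± 0.15, adjusted p = 1.84e-26, and its difference from TM siCtrl was 0.22 with siATF4-2 (adjusted p = 0.0418) and −0.42 with siATF4-3 (adjusted p = 0.000359). PEAR1, a membrane receptor, rose by 4.07 ± 0.31, KRT80, a keratin, by 3.13 ± 0.17 and the collagenase gene MMP13 by 2.87 ± 0.17. KRT80 (1.23 ± 0.14) and MMP13 (0.88 ± 0.14) were higher with siATF4-2 than with siATF4-3. The organic ion transporter relative SLC22A31 (2.36 ± 0.10) and NBPF1, of a gene family with near-identical copies (2.32 ± 0.08), rose to within 1.5-fold of TM siCtrl.

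Next to AGR2, the raised genes furthest below TM siCtrl under the naming rule were ENTPD3, an ectonucleotidase, THSD4, an extracellular matrix protein, HBEGF, an EGF receptor ligand, SLITRK6, a neuronal membrane protein, and RNASE4, a ribonuclease. ENTPD3 averaged 19.7 ± 5.79 CPM with siATF4-2, 10.4 ± 1.53 CPM with siATF4-3, 75.0 ± 6.51 CPM in TM siCtrl and 3.17 ± 0.800 CPM in DMSO siCtrl, a rise of 2.16 ± 0.18 that lay −2.39 ± 0.11 from TM siCtrl. The changes against TM siCtrl were −2.17 ± 0.12 for THSD4, −2.10 ± 0.11 for HBEGF and −1.85 ± 0.11 for RNASE4, and against DMSO siCtrl 1.90 ± 0.20, 1.20 ± 0.16 and 1.05 ± 0.14 in that order. SLITRK6 averaged 29.5 ± 4.46 CPM with siATF4-2, 12.0 ± 1.61 CPM with siATF4-3, 75.4 ± 6.75 CPM in TM siCtrl and 4.92 ± 0.954 CPM in DMSO siCtrl, a rise of 1.92 ± 0.19.

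Some genes rose beyond TM siCtrl. SEMA6A, a semaphorin, had 67.5, 69.0, 65.6 and 48.4 CPM with siATF4-2, 65.8, 64.8, 66.9 and 62.2 CPM with siATF4-3, 13.6, 13.3, 14.9 and 17.9 CPM in TM siCtrl and 22.2, 17.4, 20.6 and 22.4 CPM in DMSO siCtrl. All siATF4 values lay above all DMSO siCtrl values, while TM siCtrl lay below nearly all of DMSO siCtrl, and TM siATF4-2 replicate 4 was the lowest of its group. SEMA6A rose by 1.63 ± 0.12, with −0.48 ± 0.15 in TM siCtrl. CAMK2N1, an inhibitor of the kinase CaMKII, averaged 212 ± 25.2 CPM with siATF4-2, 154 ± 9.81 CPM with siATF4-3, 48.9 ± 17.1 CPM in TM siCtrl and 87.5 ± 23.6 CPM in DMSO siCtrl (1.05 ± 0.18). CREB5, a CREB-family transcription factor, had 5.08, 6.09, 5.32 and 3.76 CPM with siATF4-2, 4.59, 6.19, 4.93 and 5.50 CPM with siATF4-3, 1.963, 2.14, 1.38 and 1.39 CPM in TM siCtrl and 0.274, 0.537, 0.612 and 0.317 CPM in DMSO siCtrl. Its TM siCtrl values lay between those of DMSO siCtrl and both siRNA groups, for a change of 3.58 ± 0.21 and a difference from TM siCtrl of 1.58 ± 0.16. DTNA, of the dystrophin complex, rose by 1.71 ± 0.12 and TUBA1A, an alpha-tubulin, by 1.31 ± 0.13.

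Among lowered genes outside the lists, LAMA1, a laminin chain (−2.78 ± 0.19), STON1, an endocytic adaptor (−2.22 ± 0.18), and PGC, an aspartic proteinase (−2.20 ± 0.14), did not pass the test against TM siCtrl, with differences of −0.22 ± 0.27, 0.10 ± 0.25 and −0.15 ± 0.19. The peptide receptor gene GRPR (−1.31 ± 0.20) lay above TM siCtrl (1.75 ± 0.31). DAPK1, a death-associated kinase, was −1.79 ± 0.21 against DMSO siCtrl and −2.39 ± 0.20 against TM siCtrl.

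The siRNAs differed from each other for 2109 genes (14.7%), of which 1221 (8.53%) were higher with siATF4-2 and 888 (6.2%) higher with siATF4-3. ATF4 was higher with siATF4-2, and so were the ATF4-axis genes PCK2 (1.01 ± 0.18), ASNS, CHAC1 (2.09 ± 0.51), PHGDH (0.93 ± 0.10) and ATF3 (1.14 ± 0.15). HSPA5 (0.36 ± 0.09), HERPUD1 (0.72 ± 0.06) and DDIT3 (0.74 ± 0.15) were also higher with siATF4-2. KLK2 and SYT4 (−0.79 ± 0.18) were lower with siATF4-2. For the replication genes MCM2 (0.15 ± 0.18), MCM4 (0.02 ± 0.14) and MCM5 (−0.03 ± 0.20) no difference was called. What part the residual ATF4 had in these differences was not tested.

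**Figure D5:**
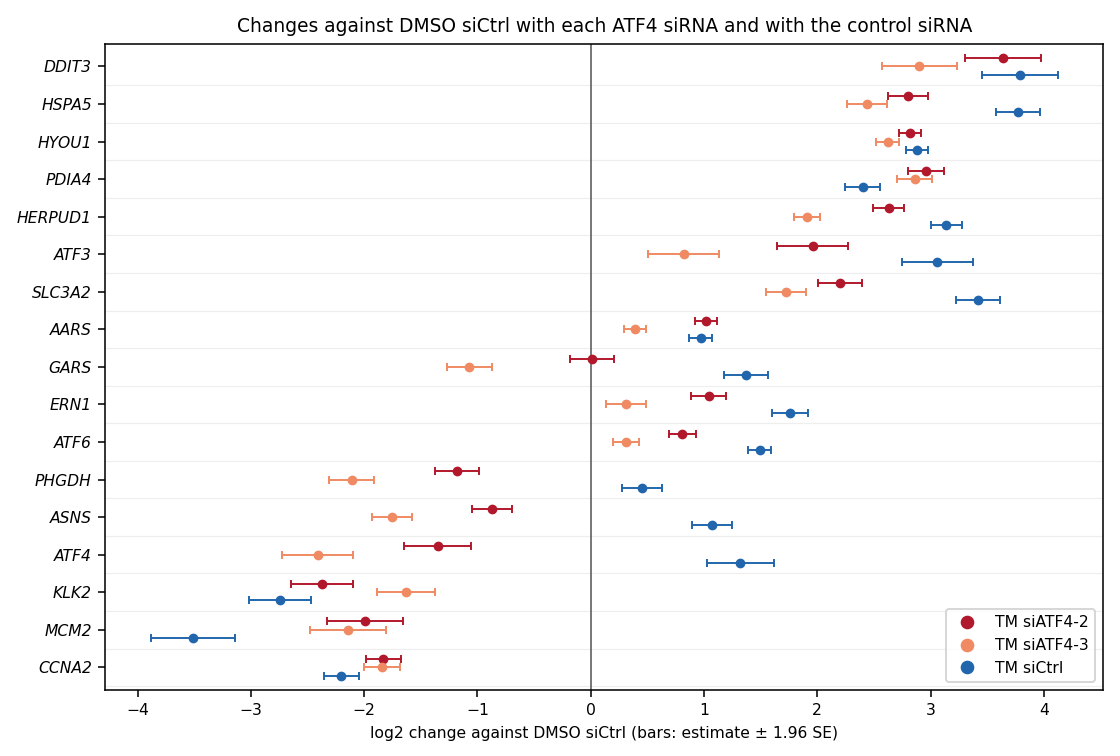
Log2 changes against DMSO siCtrl of 17 genes in TM siATF4-2, TM siATF4-3 and TM siCtrl (points, with bars for the 95% interval), which share the DMSO siCtrl libraries. The chaperone genes rise with each siRNA, ASNS, PHGDH and ATF4 are lower with each siATF4 and higher in TM siCtrl, and AARS, GARS and KLK2 differ between the siRNAs.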

How the data were processed

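RNA of LNCaP cells was sequenced from strand-specific libraries, per the labels' protocols. The deposited tables hold exon counts per gene, not normalized; the submitters' processing notes name TopHat2 2.1.0, featureCounts 1.5.0-p1, DESeq2 1.10.1 and hg19, while the roles of these tools, the annotation and the strand setting of the counting are not given there. Columns of TM siCtrl are repeated across the 6 tables, with 0 differing values. A line without gene name held 0 counts.

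Here all 28 libraries entered a group-means fit of edgeR 4.0.16 (R 4.3.3; quasi-likelihood, TMM factors, two-sided, Benjamini-Hochberg), after a filter by group (minimum count 10, minimum total 15). TM siATF4 is the mean of both siRNA groups. A gene called and at least 2-fold changed was sorted by its difference from TM siCtrl: within 1.5-fold by the 95% interval, else called nearer to DMSO siCtrl, else called beyond TM siCtrl, else none of these. Scripts were tested on simulated counts. DESeq2 1.42.0 and limma 3.58.1 were alternatives, beside other factors, filters, bounds, sets of libraries, single siRNAs and a replicate block. Intervals cover the spread between libraries within groups. For TM siATF4 the intervals do not cover the difference between the siRNAs, and the sorting uses the same intervals. Library totals ranged from 10794637 to 17253801 counts over all 28.

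Genes were named by rule: ATF4, HSPA5, DDIT3 and 4 UPR sensor and factor genes (EIF2AK3, ERN1, ATF6 and XBP1). To these came the 12 most raised and 12 most lowered genes that passed the test with each siRNA and did not overlap between groups, whose mean log2 CPM reached 1, and the leading genes of the sorted groups. From each list came up to 4 members with the largest changes and up to 2 against its majority. A few of these genes are not reported here. The comparison and the lists were chosen with earlier results of these data known. Promoter sequences are from RefSeq, build GRCh38.p14.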

Additional observations from a re-analysis of the deposited data

Results flagged for a closer look

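Among the genes picked by the naming rule, 668 groups of 4 values were examined, and in 48 of them (7.19%) the highest or lowest value stood far from the other 3 relative to the group's range. The nominal chance rate of the cutoff used is about 1 in 20 groups, a rate that was not measured here. Of the 48 values, 2 belonged to replicate 1, 6 to replicate 2, 6 to replicate 3 and 34 to replicate 4. Values are TMM-scaled CPM, with the range of the other 3 libraries in brackets, and what set these libraries apart was not tested.

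TM siATF4-2 replicate 2 stood above the others for CDK1 at 122 (101 to 103). TM siATF4-2 replicate 3 stood below the others for ATF6 at 93.6 (107 to 108), HSP90B1 at 7895 (9097 to 9214), KDELR3 at 14.9 (17.5 to 17.9) and THRSP at 0 (0.0725 to 0.0819). TM siATF4-2 replicate 4 stood above the others for DDIT4 at 265 (112 to 118), CHAC1 at 21.0 (5.83 to 6.63), INSIG1 at 175 (101 to 111), LPIN1 at 168 (117 to 124) and RPL13A at 397 (268 to 273). TM siATF4-2 replicate 4 stood above the others also for IFI44 at 1.60 (0.812 to 0.900). TM siATF4-2 replicate 4 stood below the others for SEMA6A at 48.4 (65.6 to 69.0).

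TM siATF4-3 replicate 2 stood below the others for HSPE1 at 95.8 (105 to 107). TM siATF4-3 replicate 4 stood above the others for DDIT4 at 171 (97.9 to 103), DERL3 at 20.8 (14.9 to 15.6), CHAC1 at 4.29 (1.43 to 1.92), SHMT1 at 49.1 (40.00 to 41.2) and FADS2 at 1064 (856 to 877). TM siATF4-3 replicate 4 stood above the others also for RPL13A at 397 (314 to 326) and PRKCD at 93.2 (80.2 to 81.3). TM siATF4-3 replicate 4 stood below the others for CREB3 at 60.9 (71.1 to 72.4), SSR3 at 678 (750.4 to 757), COPA at 458 (506 to 514), RPN1 at 805 (842 to 849) and HSPB8 at 4.94 (6.47 to 6.73). TM siATF4-3 replicate 4 stood below the others also for YME1L1 at 147 (163 to 166).

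TM siCtrl replicate 1 stood below the others for LIG1 at 5.77 (7.70 to 8.08). TM siCtrl replicate 4 stood above the others for MCM5 at 14.6 (9.93 to 10.4), SHMT1 at 33.8 (25.7 to 26.6), MCM2 at 21.4 (13.7 to 14.5) and PRDX1 at 338 (296 to 299.6).

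DMSO siCtrl replicate 1 stood above the others for IFIT3 at 1.65 (1.29 to 1.32). DMSO siCtrl replicate 2 stood above the others for PHGDH at 602 (557 to 562), KRT8 at 433 (395 to 397), GALNT10 at 56.5 (50.7 to 51.2) and ENO2 at 64.8 (45.5 to 47.9). DMSO siCtrl replicate 3 stood above the others for DGAT2 at 32.4 (29.3 to 29.6). DMSO siCtrl replicate 3 stood below the others for PRDX1 at 595 (617 to 621). DMSO siCtrl replicate 4 stood above the others for DDIT3 at 33.2 (15.9 to 17.8), TUBA1A at 6.18 (4.41 to 4.53), CHAC1 at 40.3 (18.1 to 20.6), AARS at 627 (552 to 561) and SQSTM1 at 302 (280.0 to 284). DMSO siCtrl replicate 4 stood below the others for ATF6 at 56.5 (60.3 to 61.1), MANF at 152 (181 to 186), LMAN1 at 282 (333 to 335), GOT2 at 317 (370.1 to 372) and KLK2 at 421 (522 to 533).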

How the results depend on the processing

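Of 516 counts of calls over all genes, 514 stayed within 1.5 times of the reported count across the 16 settings that left out 1 library and the 11 others, and 2959 of 3024 counts for the lists did. For TM siATF4 against DMSO siCtrl, 157 of the 167 genes picked by the naming rule kept direction and call under all 27 settings, and 162 did when single-siRNA settings are set aside. For TM siATF4 against TM siCtrl these numbers were 131 and 147. Reversals came with single siRNAs: with siATF4-2 alone GARS was 0.01 against DMSO siCtrl, and XDH 0.22 and AARS 0.05 against TM siCtrl, while with siATF4-3 alone ESCO2 was −0.24 against TM siCtrl. Without a filter on low counts, 1074 genes were at least 2-fold lower against DMSO siCtrl and 1152 against TM siCtrl, and 95 raised and 470 lowered genes met none of the sorting criteria. With a minimum count of 30, 6 raised and 54 lowered genes met none, and with siATF4-2 alone 71 raised genes did. A bound narrower than 1.5-fold put 86 raised and 50 lowered genes at the TM siCtrl level and left 62 raised genes unsorted. A bound of 2-fold gave 292 raised genes at the TM siCtrl level, 43 beyond it and 14 unsorted, and 395 lowered genes at it, 91 nearer to DMSO siCtrl and 67 unsorted. A fold threshold of 1.5 gave 662, 312, 230 and 86 raised and 625, 386, 434 and 313 lowered genes at the level, nearer to DMSO siCtrl, beyond and unsorted, in that order. What lay behind these shifts was not tested.

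The replicate block gave 4618 higher and 4797 lower genes in TM siATF4 against DMSO siCtrl. The labels give no shared source for the replicate numbers. Deviations of same-numbered libraries correlated by 0.0158 to 0.302 and passed 0.1 for 9 of 24 pairs of libraries. Those of differently numbered libraries correlated by −0.189 to 0.119. The block was kept as an alternative to the reported fit, which does not settle whether the libraries are paired. The best correlation was with the same number in 37 of 48 combinations of a library and another group, a hint of pairing from the data. Leaving out the fourth replicates of all groups was chosen after seeing the data: against DMSO siCtrl 479 genes were at least 2-fold higher and 777 lower, the sorted raised groups held 181, 143, 100 and 55 genes, and XBP1, ALDH1L2 and ITGA6 lost their calls. Depth limits genes such as FGF21 and THRSP, whose counts summed to 5 and 11 over the siATF4 libraries.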
